A study of Homo sapiens with 10 samples.

Results

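Messenger RNA of 10 genes of the transforming growth factor beta (TGF-β) and bone morphogenetic protein (BMP) branches was followed in 2 human glioblastoma cell lines in which the homeobox transcription factor MEOX2 was lowered or raised. The 10 genes were the ligands TGFB1, TGFB2, BMP2 and BMP4, the secreted BMP antagonist GREM1, the TGF-β-induced matrix protein gene TGFBI, the inhibitors of DNA binding ID1, ID2 and ID3, and the inhibitory SMAD gene SMAD7. They were taken by symbol from a table of 34567 genes, and all 10 had a row. SNB19 cells received a scramble siRNA (NC, n = 3) or an siRNA against MEOX2 (siMEOX2, n = 3) by lipofection. U87 cells carried an empty-vector lentivirus (EV, n = 2) or a MEOX2 overexpression lentivirus (OE, n = 2), and the stable lines had been selected with puromycin. Both lines were grown in serum-containing DMEM, so the signalling genes were read in cells that were exposed to serum in every group. Nothing in the labels says that the libraries of a group came from separate cultures, so the p-values measure the spread between these libraries, which may be technical. The treatment labels of 3 of the 4 U87 libraries spell the gene with a different final digit, and the group of each library was therefore taken from its title.

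TGF-β ligands bind the receptor pair TGFBR2 and TGFBR1 and pass the signal to SMAD2 and SMAD3, whereas BMP ligands bind BMPR2 with BMPR1A, BMPR1B or ACVR1 and act through SMAD1, SMAD5 and SMAD9. Both branches share SMAD4, and SMAD7 is induced as a feedback inhibitor of the receptors. The ID genes are classical BMP targets whose proteins bind the E-proteins and keep them from DNA, and in glioblastoma TGF-β is known for invasion and ID1 for progenitor-like cells.

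The libraries held 12533775 to 16560324 counts. MEOX2 itself behaved as labelled. In SNB19 its level was 6.54 ± 0.536 FPKM (SD, n = 3) in NC and 1.29 ± 0.156 (n = 3) in siMEOX2 cells, a fall of 2.41 on the log2 scale (SE 0.14, adjusted p = 1.35e-11, edgeR). In U87 it had 0 reads in both EV libraries and 4999 and 5308 reads in the OE libraries, at least 1488-fold higher when each EV library is set at a floor of 3 counts, which covers counting error only. One library stood apart. U87 EV replicate 1 gave 14.8% of its counts to the 84 ribosomal protein genes, against 4.61% to 7.49% in the other 9 libraries, and its log2 CPM correlated with EV replicate 2 at r = 0.946 across genes, against 0.994 to 0.995 within the other groups. The ratio between the 2 EV libraries moved with gene length: over 4 equal bins of genes ordered from short to long its median was 0.856, 0.178, -0.235 and -0.648 on the log2 scale, against -0.0919 to 0.0647 between the 2 OE libraries. ID1, ID2 and ID3 lay in the bin of shortest genes, and EV replicate 1 exceeded EV replicate 2 by 1.57, 0.467 and 1.18 log2 units for them. TGFB2 and SMAD7, in the next-to-longest bin, differed the other way, by -1.85 and -1.04 log2 units. The U87 fits of the studied genes are therefore given with and without this library, and the part of gene length or library quality in the results was not tested.

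**Figure D1:**
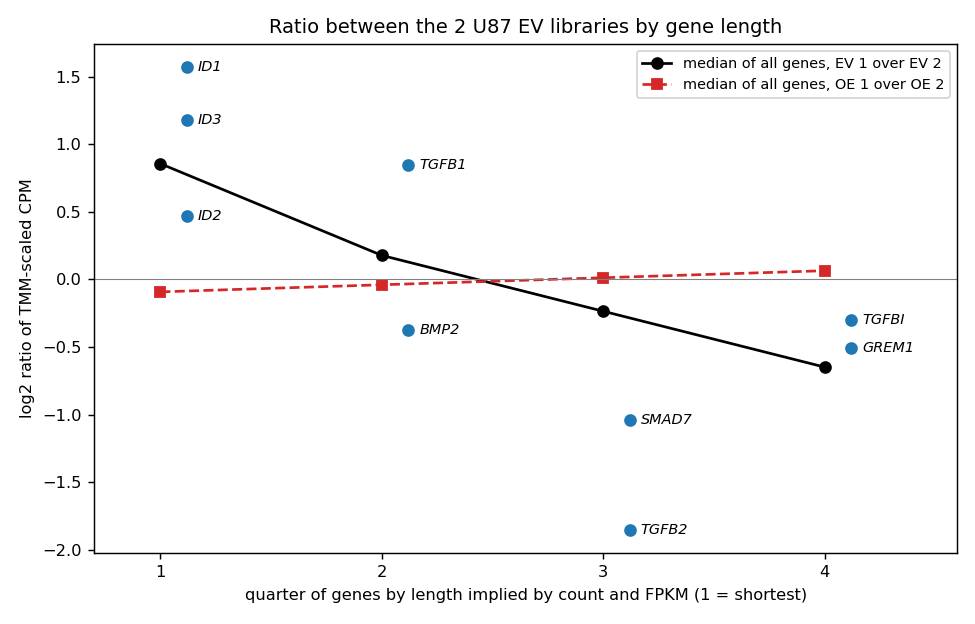
Log2 ratio of TMM-scaled CPM between the 2 U87 EV libraries (black line, all genes; blue points, the genes studied) and between the 2 OE libraries (red dashed line), by bin of gene length from 1 (shortest) to 4 (longest). The EV line runs from 0.856 to -0.648 while the OE line stays between -0.0919 and 0.0647, and ID1 and ID3 sit above the line and TGFB2 and SMAD7 below it.

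As a check of the label, the marker list was read in each group. Among its glial and progenitor genes GFAP, S100B and AQP4 averaged at most 0.363 FPKM in every group, whereas SLC1A3 averaged 3.67 to 17 FPKM, SOX9 3.61 to 18.3, OLIG2 1.15 to 6.21, CD44 13.4 to 67.7, NES 0.204 to 9.75 and VIM 84.1 to 464. SOX2 averaged 13.2 FPKM in SNB19 NC and 0.0142 in U87 EV. The blood markers PTPRC and CD68 stayed at or under 0.0478 FPKM on average. Of the epithelial markers KRT18 averaged 28 FPKM in SNB19 NC, while EPCAM averaged 0.316 and CDH1 0.178 there. Of the endothelial markers PECAM1 averaged 4.27 FPKM in SNB19 NC and 0.729 in siMEOX2 cells, and CDH5 0.696 and 0.0248. The neuronal markers RBFOX3 and SYT1 averaged at most 0.148 and 1.21 FPKM in any group.

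The 10 genes spanned a wide range of levels in the control cells, and the order of the groups differed from gene to gene. TGFB1 and ID1 were the most abundant of them per transcript length in both lines, while GREM1 and BMP2 were close to silent in SNB19 and BMP4 in U87. The FPKM values, which are reads scaled to transcript length and library size, are given for every library below and drawn together in the plot of levels.

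**Figure D2:**
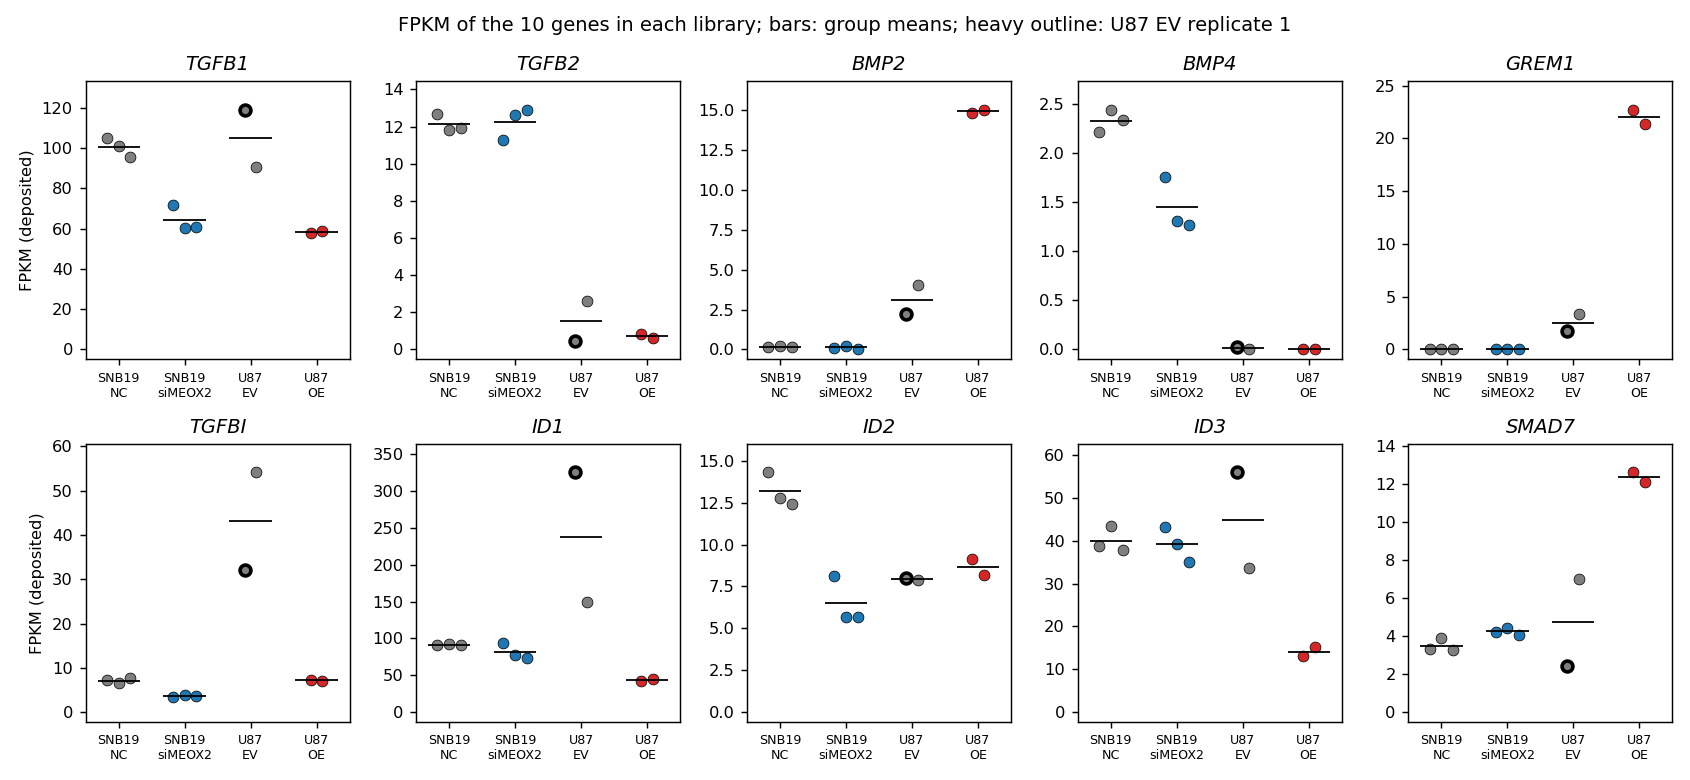
FPKM (linear axis, own scale per gene) of the 10 genes in each of the 10 libraries; points are libraries, short bars are group means and the heavy outline marks U87 EV replicate 1. TGFB1 is lower in the manipulated cells of both lines, GREM1 and BMP2 are high only in the U87 OE pair, and BMP4 is read only in SNB19 apart from a single read in U87 EV.

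Knockdown of MEOX2 in SNB19 cells was first examined. Of the 10 genes 8 had enough reads to be tested, and 5 of them fell while none rose: TGFB1, BMP4, TGFBI, ID1 and ID2. Many genes changed in this comparison (55.9% of the 15525 genes tested were called at an adjusted p under 0.05, 27.4% higher and 28.5% lower), so the 5 of 8 is near the share of all genes called, while all 5 lay on the lower side. Under the study's rule, which asks for an absolute log2 fold change over 1 and an unadjusted p under 0.05, 10.8% of genes passed, and TGFBI and ID2 were the 2 among the 8. Here and below this rule was applied to edgeR values, so its counts are not those the study reported. The median log2 fold change of the 8 genes was -0.48, against 0.01 over all genes tested. The genes were chosen with earlier results of these data known, so these values do not test them as a set. These are bulk cultures, in which fewer cells of a kind and less RNA per cell cannot be told apart.

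TGFB1 (ENSG00000105329, chr19:41301587-41353911, minus strand, GRCh38), which encodes the most widely expressed TGF-β ligand, read 105, 101 and 95.8 FPKM in NC and 71.7, 60.3 and 60.9 in siMEOX2 cells. Every knockdown library lay below every control library. The fall was 0.72 on the log2 scale (SE 0.06, adjusted p = 6.33e-09, edgeR), which is 1.65-fold. The 250 bases before its start in the RefSeq promoter table (GRCh38.p14, chr19:41353923-41354172, minus strand, 5′ to 3′) are shown because TGFB1 was lower in the manipulated cells of both lines, and none of the motifs named below was found in it. The printed bases overlap 1 annotated exon, and no base is in capitals:
TGFB1: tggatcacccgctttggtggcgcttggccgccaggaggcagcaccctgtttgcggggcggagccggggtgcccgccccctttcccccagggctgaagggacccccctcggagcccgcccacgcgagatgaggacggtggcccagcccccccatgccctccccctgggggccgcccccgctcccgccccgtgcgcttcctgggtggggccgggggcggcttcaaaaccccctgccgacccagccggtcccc

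TGFB2 (ENSG00000092969), a second TGF-β ligand first known from glioblastoma, was not called. It read 12.7, 11.8 and 11.9 FPKM in NC and 11.3, 12.6 and 12.9 in siMEOX2 cells, with overlapping ranges, and its fitted difference was -0.07 (SE 0.07, adjusted p = 0.406). TGFB3, the third ligand of the subfamily, gave -0.12 (SE 0.11, adjusted p = 0.365).

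BMP4 (ENSG00000125378, chr14:53949736-53958761, minus strand), a BMP ligand, read 2.21, 2.44 and 2.34 FPKM in NC and 1.76, 1.31 and 1.27 in siMEOX2 cells. The groups did not overlap, and the fall was 0.75 on the log2 scale (SE 0.17, adjusted p = 0.000664, edgeR) from 103 to 113 reads per NC library. BMP2 (ENSG00000125845) had only 11, 11 and 8 reads in NC and 5, 12 and 3 in siMEOX2 cells and was not tested, and its ratio of reads was 0.65 with a 95% interval of 0.35 to 1.18 that covers counting error only.

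GREM1 (ENSG00000166923, chr15:32717974-32745107, plus strand) encodes a secreted protein that binds BMP ligands and keeps them from their receptors. It had 1, 2 and 3 reads in NC and 8, 7 and 11 in siMEOX2 cells. All 3 knockdown libraries exceeded all 3 controls, but at a mean of 0.0406 FPKM the gene was barely read. The sums of 26 against 6 reads give a ratio of 4.23 (95% interval 1.7 to 12.6, counting error only). GREM1 was left out by the filter on low counts, and without that filter its fitted difference was 2.02 (SE 0.76, adjusted p = 0.0302).

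TGFBI (ENSG00000120708, chr5:136028895-136063818, plus strand), a secreted adhesion protein of the matrix, read 7.17, 6.57 and 7.61 FPKM in NC and 3.42, 3.80 and 3.60 in siMEOX2 cells. Every knockdown library lay well below every control, with a fall of 1.06 on the log2 scale (SE 0.08, adjusted p = 2.44e-10, edgeR).

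Of the ID genes ID1 and ID2 were called in SNB19 and ID3 was not, and these differences between them were not tested. ID2 (ENSG00000115738, chr2:8678845-8684453, plus strand) read 14.3, 12.8 and 12.4 FPKM in NC and 8.14, 5.65 and 5.70 in siMEOX2 cells, a fall of 1.09 (SE 0.12, adjusted p = 1.59e-07). ID1 (ENSG00000125968, chr20:31605283-31606515, plus strand) read 90.4, 92.3 and 91.7 against 93.5, 77.4 and 73.3 FPKM, so that siMEOX2 replicate 1 was as high as the controls. Its fall of 0.24 (SE 0.07, adjusted p = 0.00879) was small and was no longer called without siMEOX2 replicate 2 (adjusted p = 0.0605) or replicate 3 (adjusted p = 0.0728). ID3 (ENSG00000117318) read 38.8, 43.4 and 37.8 against 43.3, 39.2 and 35.1 FPKM with overlapping ranges, and its difference was -0.10 (SE 0.08, adjusted p = 0.275). ID4, the remaining family member, was too low to test, at 0.238 ± 0.0753 FPKM (n = 3) in NC.

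SMAD7 (ENSG00000101665) read 3.31, 3.90 and 3.29 FPKM in NC and 4.23, 4.43 and 4.06 in siMEOX2 cells. The FPKM groups did not overlap, but the fitted difference of 0.20 (SE 0.10, adjusted p = 0.0807) did not pass the threshold. SMAD6, the inhibitory SMAD of the BMP branch, fell by 0.63 (SE 0.09, adjusted p = 9.85e-06).

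Other genes of both branches were then counted from a list of 91, of which 73 were tested in SNB19. At the same threshold 34 fell and 19 rose, 72.6% of the list against 55.9% of all genes, and the median log2 fold change of the list was -0.21. The list too was chosen with earlier results of these data known, so its share is not a test of it. Among ligands and the proteins that process or store them 7 of 13 fell, including the procollagen-cleaving protease BMP1 (-1.66, SE 0.06) and GDF11 (-1.54, SE 0.10). In the same role 4 rose, including the activin subunit gene INHBA (1.79, SE 0.27) and the stress-responsive GDF15 (1.48, SE 0.09). INHBA had only 18 to 41 reads per NC library. The receptors were divided. ACVRL1 (-2.64, SE 0.29), BMPR2 (-1.32, SE 0.08) and the co-receptor ENG (2.4-fold lower) were the receptor genes with the greatest falls, and among 6 that fell were also TGFBR2 (-0.76, SE 0.06), BMPR1A (-0.53, SE 0.07) and ACVR1 (-0.54, SE 0.09). ACVRL1 was low, at 57 to 69 reads per NC library and 6 to 13 per siMEOX2 library. TGFBR1 was among the 4 that rose (0.50, SE 0.09). The type II receptor genes TGFBR2 and BMPR2 were thus lower in siMEOX2 cells, whereas ACVR2A (0.18, SE 0.15, adjusted p = 0.297) and ACVR2B (-0.03, SE 0.10, adjusted p = 0.836) were not called.

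Of the secreted antagonists and decoys 5 of 12 fell and 1 rose, and the extracellular BMP regulator BMPER fell by 1.27 (SE 0.25). The receptor and common SMADs gave 1 lower and 2 higher of 6. Negative regulators gave 6 lower and 2 higher of 11, with the ubiquitin ligase gene NEDD4L higher by 1.16 (SE 0.08). Common target genes gave 7 lower and 5 higher of 15, and those that fell included fibronectin FN1 (-1.43, SE 0.07) and the transcription factor genes ATOH8 (-1.62, SE 0.43) and DLX2 (-1.11, SE 0.29). BMPER, ATOH8 and DLX2 were low, with at most 54 reads in any SNB19 library. The E-protein genes TCF4 and TCF12 fell and TCF3 rose.

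**Figure D3:**
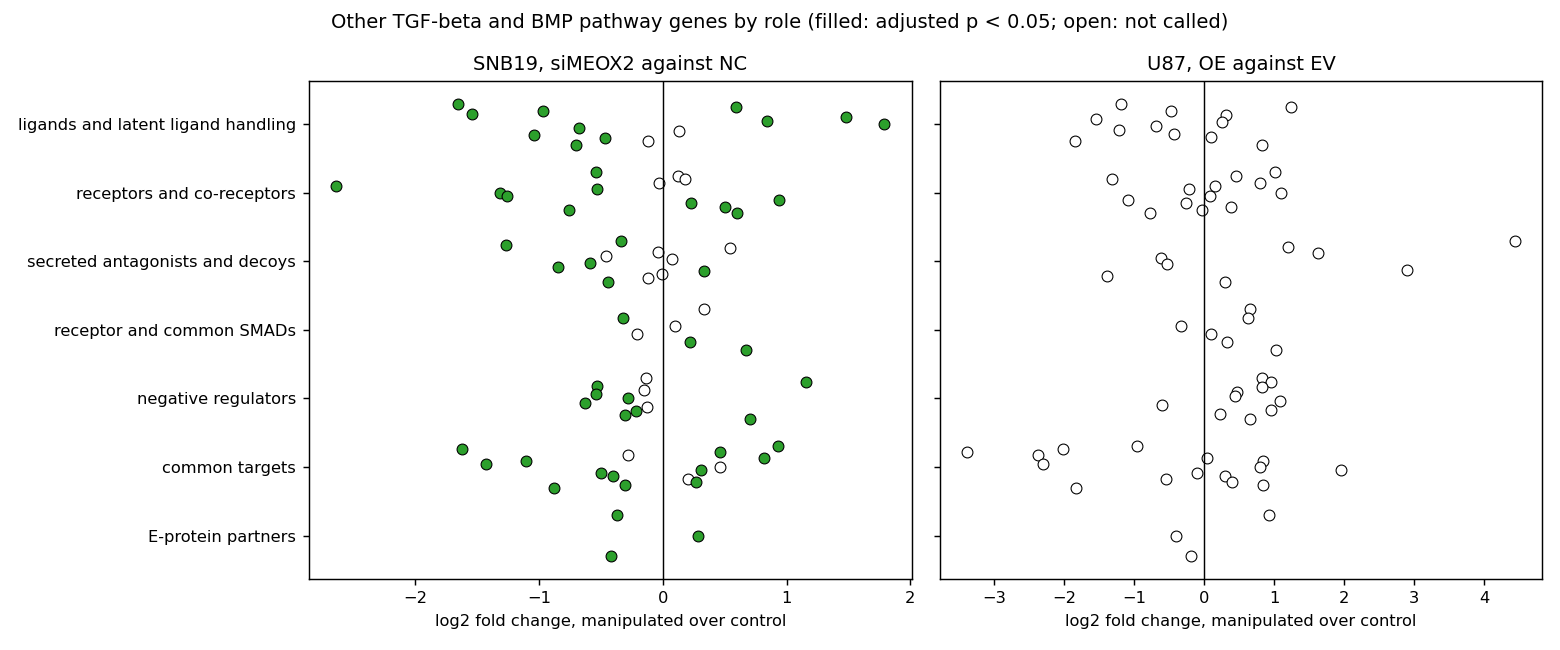
Log2 fold change of the other pathway genes by role, siMEOX2 against NC in SNB19 (left) and OE against EV in U87 (right); each point is a gene, filled where the adjusted p is under 0.05. In SNB19, 34 genes are filled on the lower side and 19 on the higher side, and in U87 no point is filled.

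Overexpression of MEOX2 in U87 cells was then examined. The levels of 7 of the 9 genes tested separated the 2 OE libraries from both EV libraries. GREM1, BMP2 and SMAD7 were higher and TGFB1, TGFBI, ID1 and ID3 lower in OE cells, by 2.21-fold to 7.71-fold on the fitted scale. A separation of 2 libraries from 2 was common in this table (58.1% of the 14180 genes tested, 29.9% higher and 28.2% lower). No gene was called at an adjusted p under 0.05 by edgeR (0% of 14180), and accordingly none of the 9. At an unadjusted p under 0.05 edgeR gave 2643 genes (18.6%, 7.98% higher and 10.7% lower), among them 7 of the 9, and DESeq2 called 991 genes (6.99%) at its adjusted p, among them 5 of the 9, namely BMP2, GREM1, TGFBI, ID1 and ID3. Without EV replicate 1 the edgeR test called 7052 genes (47.4%) and 8 of the 9, but it then rested on a lone EV library whose spread was assumed to be that of the OE pair. Other treatments of these libraries called between 0 and 8 of the studied genes: 6 with no filter on low counts (6.79% of all genes), 7 in the joint fit (26.2%), 7 under the study's rule of an absolute log2 fold change over 1 with an unadjusted p under 0.05 (15.2%), 3 with limma voom sample weights (1.15%), 4 with a replicate block (3.3%), 5 with the numbers crossed (8.12%), 8 without EV replicate 2 (71.2%), 0 without OE replicate 1 (0.275%) or replicate 2 (0.254%) and 0 with RLE scaling (0%). The median absolute log2 fold change of the 9 genes was 1.99, against 0.60 over all genes, and it was 1.80 against 0.45 without EV replicate 1. The genes were chosen with earlier results of these data known, so this excess is not a test of them as a set.

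GREM1 had the largest fitted difference among the studied genes that were higher in OE cells. It read 1.70 and 3.32 FPKM in EV and 22.7 and 21.4 in OE cells, or 401 and 682 against 4158 and 4583 reads. Both OE libraries were several times above both EV libraries. The fitted log2 difference was 2.95 (SE 0.33, unadjusted p = 0.000458, adjusted p = 0.123, edgeR), and 2.72 without EV replicate 1. In U87 that fit rests on a lone EV library, so only its effect size is given for single genes. The 220 bases before the GENCODE start of GREM1 (from the RefSeq promoter window, GRCh38.p14, chr15:32717754-32717973, plus strand, 5′ to 3′) are shown. GREM1 had the largest fitted difference of the 10 genes from the EV pair. The printed bases overlap 1 annotated exon. Capitals mark the short SMAD-binding motif CAGAC in either orientation and the GC-rich BMP element GGCGCC:
GREM1: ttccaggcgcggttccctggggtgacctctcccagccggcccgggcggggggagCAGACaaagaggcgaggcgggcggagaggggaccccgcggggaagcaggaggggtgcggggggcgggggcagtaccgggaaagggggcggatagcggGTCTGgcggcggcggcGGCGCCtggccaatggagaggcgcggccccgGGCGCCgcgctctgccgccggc

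The SMAD motif lies 196 and 99 bases, and the GC element 83 and 52 bases, before the RefSeq start. That start follows the full 250-base window (chr15:32717754-32718003), which runs past the end of the printed bases. Both are frequent letters: over 35116 RefSeq promoter windows of 250 bases, searched on both strands, 38.0% hold CAGAC and 16.4% hold GGCGCC. The palindromic SMAD box GTCTAGAC (0.182% of windows) and the homeodomain core TAATTA (4.35%) were not found in any promoter window of the 9 genes that matched the table. BMP2 had no entry.

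BMP2 read 2.23 and 4.01 FPKM in EV and 14.8 and 15 in OE cells, so the antagonist GREM1 and a ligand of the same branch were both higher in the OE pair. Its fitted difference was 2.06 (SE 0.28, unadjusted p = 0.00113, adjusted p = 0.136), and 1.88 without EV replicate 1. BMP4 was hardly transcribed, with 1 and 0 reads in EV and 0 and 0 in OE cells, and it was not tested. SMAD7 read 2.45 and 7.01 against 12.6 and 12.1 FPKM. The EV libraries were far apart, and the difference was 1.24 (SE 0.43, unadjusted p = 0.0369, adjusted p = 0.246), and 0.81 without EV replicate 1. SMAD6 gave -0.60 (SE 0.44, adjusted p = 0.461), and -0.96 without that library.

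The TGF-β side lay in the opposite direction. TGFB1 read 119 and 90.6 FPKM in EV and 57.8 and 58.6 in OE cells. The difference was -1.14 (SE 0.40, unadjusted p = 0.0381, adjusted p = 0.247), and -0.65 without EV replicate 1, beside the fall of 0.72 in siMEOX2 cells. TGFBI read 32.1 and 54.1 against 7.28 and 7.07 FPKM. It was the gene whose lower level depended least on the choice of EV library, with -2.79 (SE 0.30, unadjusted p = 0.000374, adjusted p = 0.123) from both, -2.93 without EV replicate 1 and -2.61 without EV replicate 2. TGFB2 read 0.481 and 2.61 against 0.852 and 0.623 FPKM, so the OE libraries lay between the EV libraries. Its fitted difference of -1.17 (SE 0.72, adjusted p = 0.404) became -1.84 without EV replicate 1 and 0.16 without EV replicate 2, and no direction can be given. TGFB3 read 1.70 and 2.32 against 0.552 and 0.751 FPKM, a difference of -1.85 (SE 0.34, adjusted p = 0.162), and of -1.83 without EV replicate 1.

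ID1 and ID3 lay lower in both OE libraries, and ID2 did not separate the groups by the fit. ID1 read 325 and 150 FPKM in EV and 41.9 and 44.9 in OE cells. Although both EV libraries were above both OE libraries, they differed more than 2-fold from each other. The fitted difference of -2.80 (SE 0.62, unadjusted p = 0.00764, adjusted p = 0.175) shrank to -1.80 without EV replicate 1. ID3 showed the same layout, at 55.9 and 33.7 against 13 and 15.2 FPKM. Its difference was -1.99 (SE 0.49, unadjusted p = 0.0112, adjusted p = 0.187), and -1.27 without that library. ID2 read 8 and 7.87 against 9.12 and 8.18 FPKM, with a fitted difference of -0.14 (SE 0.31, adjusted p = 0.795) that turned to 0.12 without EV replicate 1. ID4 stood on the other side of its family, at 1.11 and 2.73 against 8.17 and 8.51 FPKM. Its difference was 1.95 (SE 0.39, unadjusted p = 0.00539, adjusted p = 0.164), and 1.60 without EV replicate 1.

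The 244 bases before the GENCODE start of ID1 (from the RefSeq promoter window, GRCh38.p14, chr20:31605039-31605282, plus strand, 5′ to 3′) are shown. ID1 had the highest mean FPKM of the 10 genes in U87 EV cells. The RefSeq start follows the full window (chr20:31605039-31605288), which runs past the end of the printed bases. Capitals mark the TATA box core TATAAA, which is read in both orientations in overlap, 33 and 31 bases before the RefSeq start, and which 10.7% of the windows hold:
ID1: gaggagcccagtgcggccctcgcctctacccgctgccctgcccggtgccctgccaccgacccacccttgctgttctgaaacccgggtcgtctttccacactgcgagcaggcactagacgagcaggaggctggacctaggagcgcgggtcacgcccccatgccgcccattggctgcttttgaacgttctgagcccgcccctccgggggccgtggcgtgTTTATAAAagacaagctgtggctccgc

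Of the pathway list 67 genes were tested in U87, and none was called by edgeR. At an unadjusted p under 0.05 there were 12 higher and 11 lower (34.3%, against 18.6% of all genes), and without EV replicate 1 the adjusted test called 22 higher and 26 lower of 69 (69.6%, against 47.4%). The fit without EV replicate 1 rests on a lone EV library. The joint fit called 17 higher and 15 lower of 80 (40%, against 26.2% of all genes). Because the list was chosen with earlier results of these data known, these shares do not test it as a set. By role, the genes below the unadjusted threshold were 4 higher and 0 lower of 8 antagonists and decoys, and 4 higher and 0 lower of 10 negative regulators. Ligand and latency genes gave 0 higher and 4 lower of 12, and target genes 2 higher and 6 lower of 15. Receptors gave 2 higher and 1 lower of 13, with ENG lower (-1.09, SE 0.30, unadjusted p = 0.0184, adjusted p = 0.209, edgeR). None of the 6 receptor and common SMADs and none of the 3 E-protein genes passed that threshold. Without EV replicate 1 the adjusted test gave 4 higher and 2 lower of 9 antagonists and decoys, 7 higher and 1 lower of 10 negative regulators, 1 higher and 8 lower of 13 ligand and latency genes, and 4 higher and 6 lower of 15 target genes, and the joint fit gave 4 higher and 3 lower of 13 antagonists and decoys. Of the BMP receptors BMPR1B gave 1.10 (SE 0.27, unadjusted p = 0.0116, adjusted p = 0.188) and ACVR1 1.01 (SE 0.37, unadjusted p = 0.047, adjusted p = 0.263), with both OE libraries above both EV libraries, whereas BMPR2 gave 0.08 (SE 0.44, adjusted p = 0.925) and BMPR1A -0.22 (SE 0.43, adjusted p = 0.776). Without EV replicate 1 the differences were 1.06 for BMPR1B, 0.65 for ACVR1, -0.37 for BMPR2 and -0.66 for BMPR1A.

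**Figure D4:**
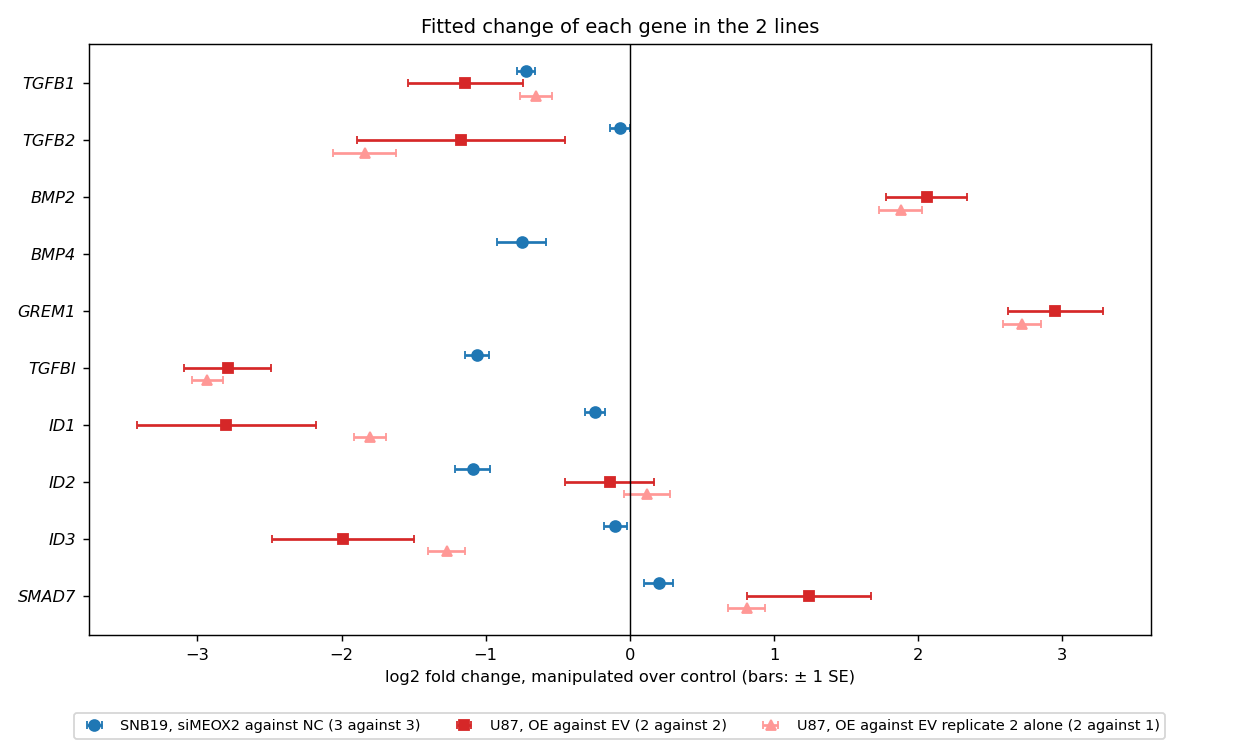
Log2 fold change of manipulated over control cells (x axis; bars are ± 1 SE) for siMEOX2 against NC in SNB19 (blue circles), OE against EV in U87 (red squares) and OE against EV replicate 2 alone (pale triangles). TGFB1 and TGFBI lie left of 0 in both lines, and ID1 and ID3 lie further left in U87 than in SNB19 with or without EV replicate 1; BMP2 and GREM1 have no SNB19 point and BMP4 no U87 point because of low counts.

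The responses of the lines to the opposite manipulations were compared in a joint fit of all 10 libraries, as the OE minus EV difference less the siMEOX2 minus NC difference. Line and direction of the manipulation cannot be told apart in this contrast. It was called for 15.7% of the 17312 genes tested (7.33% higher, 8.36% lower) and for 4 of the 10 genes. BMP2 was higher in the contrast, at 2.68 (SE 0.54, adjusted p = 0.0122), with the SNB19 side resting on at most 12 reads per library. TGFBI was lower at -1.71 (SE 0.19, adjusted p = 0.000964), with the larger of its differences in U87. ID1, at -2.53 (SE 0.51, adjusted p = 0.0128), and ID3, at -1.86 (SE 0.41, adjusted p = 0.0183), were lower as well. Without EV replicate 1 these contrasts were 2.54 for BMP2, -1.81 for TGFBI, -1.50 for ID1 and -1.10 for ID3, all called, as were 7 of the 10 genes, against 35.5% of all genes. A replicate block left 2 of the 10 called, against 4.03% of all genes.

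The difference between the responses was not called for TGFB1 (-0.40, SE 0.31, adjusted p = 0.41), ID2 (0.98, SE 0.30, adjusted p = 0.0592), SMAD7 (1.06, SE 0.36, adjusted p = 0.0789), TGFB2 (-1.09, SE 0.60, adjusted p = 0.233) or GREM1 (0.95, SE 0.61, adjusted p = 0.391). For TGFB1 the difference was 0.13 without EV replicate 1. When both lines were instead oriented as high minus low MEOX2, an orientation chosen after the values were seen, 24.4% of genes and 7 of the 10 were called. TGFB1 (-1.86, SE 0.32, adjusted p = 0.00321) and TGFBI (-3.85, SE 0.19, adjusted p = 1.44e-05) were then among them, since each was lower in both the siMEOX2 and the OE cells than in their own controls. GREM1 (4.97, SE 0.48, adjusted p = 0.000185) was called in the same orientation, with at most 11 reads in any SNB19 library. ID1, ID2, ID3 and SMAD7 were also called. BMP2 was not called (1.45, SE 0.55, adjusted p = 0.0843).

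Of the pathway list 23 of 80 genes had a called difference between the responses (28.8%, against 15.7% of all genes), 14 higher and 9 lower. The list was chosen with earlier results of these data known, so this share does not test it as a set. The pseudoreceptor BAMBI, a decoy for TGF-β and BMP receptors, gave the largest at 4.82 (SE 0.24, adjusted p = 2.09e-05). It was at 1.27 ± 0.0166 FPKM (SD, n = 2) in EV and 33.3 ± 1.06 (n = 2) in OE cells, while it fell by 0.34 (SE 0.11) in siMEOX2 cells. The collagen gene COL1A1 gave -3.83 (SE 0.33, adjusted p = 0.000333), from 77.9 and 188 FPKM in EV to 15.1 and 13.3 in OE cells and from 4.71 ± 0.552 to 6.82 ± 0.37 (n = 3 each) in SNB19. COL1A2 (-2.06, SE 0.43), the BMP antagonist gene CHRDL1 (-3.26, SE 0.75) and the corepressor gene TGIF2 (-2.22, SE 0.39) were lower too, the last 2 with at most 14 reads in any U87 library, and BMPER was higher (2.49, SE 0.43). Without EV replicate 1 these contrasts were 5.11 for BAMBI, -4.15 for COL1A1, -2.33 for COL1A2, -3.53 for CHRDL1 and 2.10 for BMPER, while TGIF2 at -1.84 was no longer called. BMPER read lower in siMEOX2 than in NC cells and higher in OE than in EV cells. With both lines oriented as high minus low MEOX2, it gave -0.07 (SE 0.40, adjusted p = 0.939, edgeR) and was not called. TGIF2 was not called there either (-0.84, SE 0.39, adjusted p = 0.369), while BAMBI, COL1A1, COL1A2 and CHRDL1 were. COL1A1 and COL1A2 are also on the list of fibroblast and pericyte markers, of which PDGFRB averaged 3.50 FPKM in EV and 1.13 in OE cells, and their part in the result was not tested.

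The control cells of the lines also differed. The joint fit called 56.9% of genes between SNB19 NC and U87 EV (28.1% higher and 28.8% lower in SNB19), and 7 of the 10 studied here, and cell line and vehicle cannot be told apart. TGFB2 was higher in SNB19 by 2.73 (SE 0.44, adjusted p = 0.00075). BMP4 gave 328 reads in the 3 NC libraries and 1 read in the 2 EV libraries, a ratio of 167 after scaling for depth (95% interval 29.8 to 6630, counting error only). Lower in SNB19 were GREM1 (-8.35, SE 0.31, adjusted p = 1.72e-07), BMP2 (-4.41, SE 0.34, adjusted p = 6.75e-06), TGFBI (-2.93, SE 0.13, adjusted p = 3.57e-07), ID1 (-1.85, SE 0.35, adjusted p = 0.00184) and SMAD7 (-0.72, SE 0.25, adjusted p = 0.0373). Of the 10 genes, TGFB2 and BMP4 were thus read mainly in SNB19 and BMP2 and GREM1 mainly in U87. GREM1 does not stand for the antagonists as a class. Of 13 other secreted antagonists and decoys tested, 8 were called higher and 2 lower in SNB19.

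TGFB1 was at 101 ± 4.46 FPKM (n = 3) in NC and 105 ± 20 (n = 2) in EV cells, with overlapping ranges and a fitted difference of -0.48 (SE 0.22, adjusted p = 0.0892). ID2 (0.34, SE 0.22, adjusted p = 0.202) and ID3 (-0.61, SE 0.28, adjusted p = 0.0941) were not called either. Without EV replicate 1, which leaves a lone EV library, ID1 was at -0.86, ID2 at 0.59 and ID3 at 0.09. SMAD7 was at -0.12 (adjusted p = 0.464) without EV replicate 2, and its call was also lost without any 1 of the SNB19 or OE libraries. Of the pathway list 28 genes were higher and 28 lower in SNB19 among 80 tested (70%). The homeobox gene MSX2, a BMP target, averaged 6.01 ± 0.204 FPKM (n = 3) in NC and was listed at 0 in both EV libraries, whereas COL1A2 averaged 0.0798 ± 0.0168 FPKM in NC and 97.8 ± 53.7 (n = 2) in EV cells.

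Ranked by group mean FPKM over the 4 groups, TGFB1 was ordered EV, NC, siMEOX2, OE, and only the neighbours EV and NC overlapped. ID1 had the same order, with NC and siMEOX2 overlapping, and ID3 too, with EV, NC and siMEOX2 overlapping in turn. The first place of EV for TGFB1 and ID3 rested on EV replicate 1. EV replicate 2 read 90.6 FPKM for TGFB1, under the NC minimum of 95.8. For ID3 it read 33.7 FPKM, under the siMEOX2 minimum of 35.1. TGFBI was ordered EV, OE, NC, siMEOX2 with OE and NC overlapping, and BMP2 was ordered OE, EV, NC, siMEOX2 with the SNB19 groups overlapping. SMAD7 and GREM1 shared the order OE, EV, siMEOX2, NC, with overlap between EV and siMEOX2 for SMAD7 and none for GREM1. ID2 was ordered NC, OE, EV, siMEOX2, with EV and siMEOX2 overlapping.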

How the data were processed

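Poly-A RNA from 10 libraries in 4 groups was sequenced by the authors. The submitters' processing notes name HISAT2, HTSeq 0.11.2, DESeq2 1.26.0 and GRCh38, and whether counting used strand is not given in the sources used here. The deposited table holds raw counts per gene and FPKM values computed by the authors. Counts were tested with edgeR 4.0.16 (quasi-likelihood test, TMM scaling, filterByExpr, Benjamini-Hochberg adjustment over all genes tested, threshold 0.05) in R 4.3.3, within each line and in a joint fit of all 10 libraries. FPKM was only described. Alternatives used DESeq2 1.42.0, limma 3.58.1, other scaling, no filter, replicate blocks, the study's thresholds on edgeR values and omission of single libraries. Same-numbered libraries did not deviate together (r = -0.03 to 0.07 in SNB19, -0.28 in U87). Code was tested on simulated data. The genes, the pathway list and the marker list were chosen with earlier results of these data known. The text names MEOX2, the 10 genes, called pathway genes of largest change (at most 12 per line comparison and 6 per joint comparison) with ID4, SMAD6, TGFB3 and the receptors as background, and the 2 most similar genes. ID2, ID3, BMP2, TGFB2 and SMAD7 promoters were not printed. All 34567 gene identifiers matched GENCODE v29.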

Additional observations from a re-analysis of the deposited data

Results flagged for a closer look

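The responses of the lines to the opposite manipulations differed by the joint edgeR test for 4 of the genes. Line and direction of the manipulation cannot be told apart for any of them. The log2 contrast (U87 OE response less SNB19 siMEOX2 response) was 2.68 for BMP2, which was higher in OE than EV in 2 of 2 libraries and rested on at most 12 reads per SNB19 library. It was -1.71 for TGFBI, which was lower than its controls in all 3 siMEOX2 and both OE libraries. It was -2.53 for ID1 and -1.86 for ID3, both lower in 2 of 2 OE libraries and both in the bin of shortest genes, where U87 EV replicate 1 was high. With both lines oriented as high minus low MEOX2, TGFBI, ID1 and ID3 were called and BMP2 was not (1.45, SE 0.55, adjusted p = 0.0843, edgeR).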

How the results depend on the processing

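In SNB19 the 8683 called genes became 2725 in the joint fit, and 1669, with 2 of the studied genes (TGFBI and ID2), under the study's rule of an absolute log2 fold change over 1 with an unadjusted p under 0.05. BMP4 was not called in the joint fit (adjusted p = 0.0675) and ID1 was not either (adjusted p = 0.659). ID3 was called lower without siMEOX2 replicate 1 (adjusted p = 0.0142) and SMAD7 higher without NC replicate 2 (adjusted p = 0.032). In U87 the 0 genes called became 991 with DESeq2 (5 of the studied genes), 1863 without a filter (6), 4538 in the joint fit (7), 2160 under the study's rule (7), 163 with limma voom sample weights (3), 468 with the replicate block (4) and 1152 with the numbers crossed (5), the weights and the crossing having been chosen after seeing the data. Leaving out a single library gave 38 to 10616 genes and 0 to 8 of those studied; without EV replicate 2 the count was 10616 and without an OE library 41 or 38. RLE scaling also gave 0. For the difference between the responses, 2716 genes and 4 studied genes became 698 and 2 with the replicate block, which lost ID1 (adjusted p = 0.0629) and ID3 (adjusted p = 0.0801), and 1018 to 10034 genes and 2 to 7 of those studied without a single library. The replicate block gave no change of call among the studied genes in SNB19, where the numbers share only a name. Directions that turned, each with its range over single libraries left out, were TGFB2 in U87 (-1.84 to 0.16, the latter without EV replicate 2), ID2 in U87 (-0.33 to 0.12, the latter without EV replicate 1), ID3 between controls (-1.11 to 0.09, the latter without EV replicate 1), and, for the difference between responses, TGFB1 (-0.74 to 0.13, the latter without EV replicate 1) and TGFB2 (-1.72 to 0.24, the latter without EV replicate 2). The cause was not tested. With 2 libraries a group and a gap between the EV libraries, U87 sizes are less certain than SNB19 sizes.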

Other observations

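Over the 10 libraries, with the mean of each line subtracted, the profiles of log2 CPM most like those of TGFB1 were IMPDH1 (r = 0.997) and H2AFV (r = 0.996), those most like TGFBI were DPYSL2 (r = 0.997) and ABCA7 (r = 0.994), those most like ID1 were PRMT7 (r = 0.998) and NELFB (r = 0.997), and those most like ID2 were FBXO17 (r = 0.988) and OPA3 (r = 0.988), out of 12994 genes. These are descriptions over libraries that share line, vehicle and the wide gap between the U87 EV libraries.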
